A study of Mus musculus with 5 samples.

Results

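The genes examined were Insr, Srebf1, Nr5a2 and Cp, 4 of the 26 genes for which the study lists diabetes-related elements occupied by Foxa1 and its paralog Foxa2. They are represented by all intervals that the list gives for these 4 genes, 5 of the 33 distinct intervals in it, together with the 100 kb on each side of each interval. Insr, Srebf1 and Cp have 1 interval each, and Nr5a2 has a pair of them, called site 1 and site 2 here in the order of their coordinates. Foxa1-bound DNA was measured by chromatin immunoprecipitation followed by sequencing (ChIP-Seq) in 5 biological replicates of liver from wild-type CD1 outbred male mice, 2 to 3 months old, with a Foxa1 antiserum. Each chromatin preparation started from 100 mg of snap-frozen liver, and fragments of about 200 bp were amplified by 18 cycles of PCR. All 5 replicates belong to 1 condition, and no input or control library was used here, so every value is set against the DNA beside the interval and not against another group of mice.

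Foxa1 is a winged-helix (forkhead) transcription factor that binds regulatory DNA and can bind its sites in compact chromatin, and it is abundant in hepatocytes. The 4 genes act in liver metabolism. Insr encodes the insulin receptor, the tyrosine kinase at the cell surface that starts the insulin signal. Srebf1 encodes a membrane-bound transcription factor that, once cleaved, turns on genes of fatty acid synthesis, and insulin raises its expression in liver. Nr5a2, also called LRH-1, is a nuclear receptor that controls genes of bile acid and cholesterol metabolism. Cp encodes ceruloplasmin, the copper-carrying ferroxidase that hepatocytes secrete into plasma.

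The files held 3672991 to 8239957 aligned reads of 36 bp per replicate. Counting reads with the same strand and 5′ end once left 3123543 distinct nuclear reads in replicate 1, 4259483 in replicate 2, 4433367 in replicate 3, 4742472 in replicate 4 and 1473182 in replicate 5, or 18032047 in all. Distinct reads made up 57.6% of the deposited nuclear reads in replicate 4 and 21.1% in replicate 5, against 85.0% to 93.1% in the other 3 replicates. The file headers of replicates 3 and 4 carry the same mouse name, WT4, and whether they came from 1 mouse was not known. Each member interval held only 8 to 12 distinct reads over all 5 replicates, so 1 library could decide a value, and results are given with each library left out where that changed a call.

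All 5 member intervals held more Foxa1 reads than their flanks, which are the 5 kb on each side starting 1 kb from the interval. The excess ranged from 2.69-fold at Insr to 6.47-fold at Srebf1. Reads pooled over replicates were compared with the flanks in an exact binomial test, one-sided and given the widths. Each interval passed at 0.05 after Benjamini-Hochberg adjustment over the list, as did 100% of the 33, so the count of 5 tells nothing particular about these genes. The study found the intervals with reads of these same libraries, so the tests describe the excess and are no independent evidence of binding. Read density is given as distinct reads per kb, scaled to 1000000 distinct nuclear reads in the replicate. Confidence intervals of a fold are exact 95% intervals, those of a ratio of folds are approximate, and both cover counting error only.

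Counting each distinct read once, Insr had the smallest excess of the 33 intervals over flanks of 5 kb. Its pooled flank density, 0.638, was the highest of the 33. The pooled density in its interval, 1.71, was the lowest, next to 1.72 at Sorcs1 site 2. Its interval, chr8:3256478-3256736 (mm8, 259 bp), held 1 distinct read in replicate 1, 1 in replicate 2, 1 in replicate 3, 3 in replicate 4 and 2 in replicate 5. The density was 1.24, 0.906, 0.871, 2.44 and 5.24 in replicates 1 to 5, highest in the least deep library. It held a read, and so lay above the flanks, in all 5 replicates, which was so at 33.3% of the 33 intervals and, among the members, at Insr alone. The flanks gave fewer than 1 read for a window of this width in every replicate, so a single read was enough to be above them, and this count records no more than the presence of a read. The mean was 2.14 ± 1.85 (SD, n = 5) in the interval and 0.656 ± 0.248 in the flanks. The difference of 1.48 ± 1.67 gave p = 0.0625 in a two-sided exact sign-flip permutation test, the smallest p that 5 replicates allow, so this design could not pass 0.05. The pooled count of 8 reads was 2.69-fold over 115 flank reads (95% interval 1.13 to 5.47, adjusted p = 0.0131, one-sided exact binomial test). In replicate 5, the 2 distinct reads at Insr stood for 17 deposited reads, more copies per distinct read than at any other member interval in any replicate. The call at Insr was lost without replicate 4 (2.51-fold, adjusted p = 0.0605) and without replicate 5 (2.29-fold, adjusted p = 0.0562) in the same exact test. It was also lost with the interval widened by 100 bp on each side, at 1.63-fold. With flanks of 100 kb the fold at Insr was 3.63, and with all deposited reads it was 5.00. Against the genome mean in place of the flanks, a mean that takes in stretches without reads, it was 4.51.

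The Srebf1 interval, chr11:60056781-60056990 (mm8, 210 bp), had the highest pooled fold of the 5, and its reads came from a pair of libraries. It held 0 distinct reads in replicate 1, 8 in replicate 2, 0 in replicate 3, 3 in replicate 4 and 0 in replicate 5. The density was 8.94 in replicate 2 and 3.01 in replicate 4. A count of 0 allowed a density of up to 4.57 in replicate 1, 3.22 in replicate 3 and 9.70 in replicate 5, taking 3 reads as the limit, so a level like that of replicate 4 was not excluded by counting error in any of the 3 libraries without a read. The density of replicate 2 lies above the limits of replicates 1 and 3 and below that of replicate 5. The mean density was 2.39 ± 3.89 (SD, n = 5) in the interval and 0.453 ± 0.0910 in the flanks, and the spread between replicates exceeded the difference of 1.94 ± 3.83 (p = 0.5, two-sided exact sign-flip permutation test). Pooled, 11 reads stood against 81 flank reads, 6.47-fold (95% interval 3.11 to 12.2, adjusted p = 5.62e-06, one-sided exact binomial test). Replicate 2 decided this value, since without it the fold was 2.55 and the call was lost (adjusted p = 0.122, exact test). With the interval widened by 100 bp on each side the fold was 3.87.

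The Nr5a2 sites lie 33.8 kb apart. Replicates 1 and 2 gave reads at both, replicates 3 and 4 at site 2 only and replicate 5 at site 1 only. Site 1, chr1:138712420-138712700 (mm8, 281 bp), held 1 distinct read in replicate 1, 5 in replicate 2, 0 in replicate 3, 0 in replicate 4 and 4 in replicate 5. The density reached 9.66 in replicate 5 and 4.18 in replicate 2, was 1.14 in replicate 1, and was at 0 in replicates 3 and 4, where the count allowed up to 2.41 and 2.25. Those limits lie below the densities of replicates 2 and 5 and above that of replicate 1. The mean was 3.00 ± 4.10 (SD, n = 5) against 0.484 ± 0.120 in the flanks, a difference of 2.51 ± 4.06 (p = 0.3125, two-sided exact sign-flip permutation test). Pooled, 10 reads against 85 flank reads gave 4.19-fold (95% interval 1.94 to 8.08, adjusted p = 0.000346, one-sided exact binomial test). Without replicate 2 the fold was 2.54 and the call was lost (adjusted p = 0.0564, exact test). With the interval widened by 100 bp on each side the fold was 2.39.

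Site 2 of Nr5a2, chr1:138746200-138746450 (mm8, 251 bp), held the most reads of the 5 intervals. It held 3 distinct reads in replicate 1, 3 in replicate 2, 2 in replicate 3, 4 in replicate 4 and 0 in replicate 5. The density was 3.83, 2.81, 1.80 and 3.36 in replicates 1 to 4. Replicate 5, the least deep library, had no read, which allowed up to 8.11, so a level like the others was not excluded there. The mean was 2.36 ± 1.52 (SD, n = 5) against 0.543 ± 0.152 in the flanks, a difference of 1.81 ± 1.60 (p = 0.125, two-sided exact sign-flip permutation test). Pooled, 12 reads against 91 flank reads gave 5.25-fold (95% interval 2.62 to 9.63, adjusted p = 1.35e-05, one-sided exact binomial test). Site 2 was the one member interval that kept its call under all 13 alternatives tried, with a lowest fold of 2.99 when the interval was widened by 100 bp on each side.

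The Cp interval, chr3:20157492-20157700 (mm8, 209 bp), held 2 distinct reads in replicate 1, 0 in replicate 2, 1 in replicate 3, 4 in replicate 4 and 1 in replicate 5. The density was 3.06, 1.08, 4.04 and 3.25 in replicates 1, 3, 4 and 5, and the count of 0 in replicate 2 allowed up to 3.37. The mean was 2.29 ± 1.68 (SD, n = 5) against 0.673 ± 0.511 in the flanks, a difference of 1.61 ± 1.49 (p = 0.125, two-sided exact sign-flip permutation test). The flank density of replicate 5 was 1.56, set apart from 0.329 to 0.654 in the other 4 replicates, and without replicate 5 the Cp interval kept its call (4.41-fold, adjusted p = 0.00221, one-sided exact binomial test). With all replicates, 8 reads against 99 flank reads gave 3.87-fold (95% interval 1.62 to 7.92, adjusted p = 0.00184, one-sided exact binomial test). The call was lost without replicate 4 (2.81-fold, adjusted p = 0.0624, exact test) and with the interval widened by 100 bp on each side (2.00-fold, adjusted p = 0.0596). With all deposited reads the fold at Cp was 2.21.

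**Figure D1:**
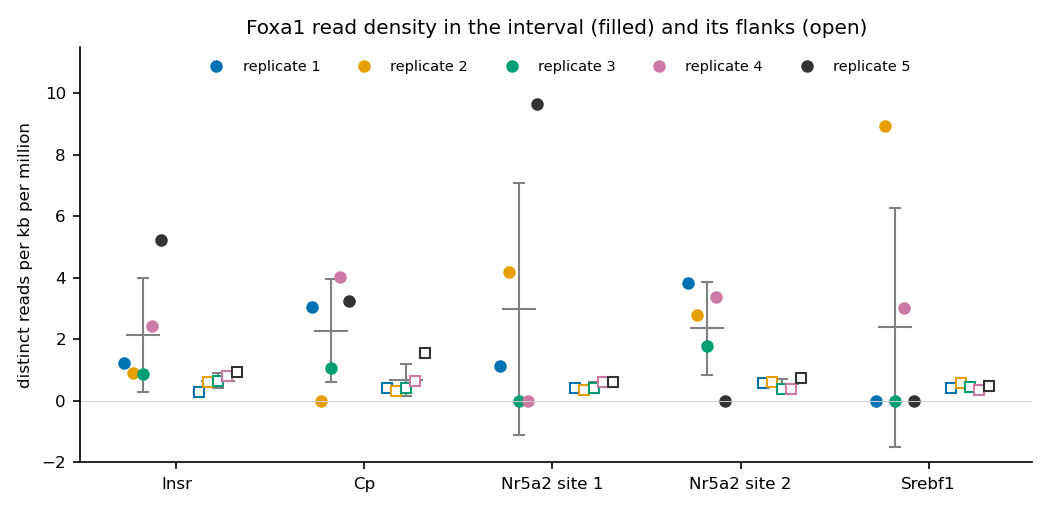
Distinct reads per kb and 1000000 distinct reads (vertical axis) in each member interval (filled circles) and its flanks (open squares), 1 point per replicate, with the mean and SD of 5 replicates in grey. Insr has a read in all 5 replicates, whereas Srebf1 has reads in replicates 2 and 4 only, and Nr5a2 site 1 in replicates 1, 2 and 5.

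**Figure D2:**
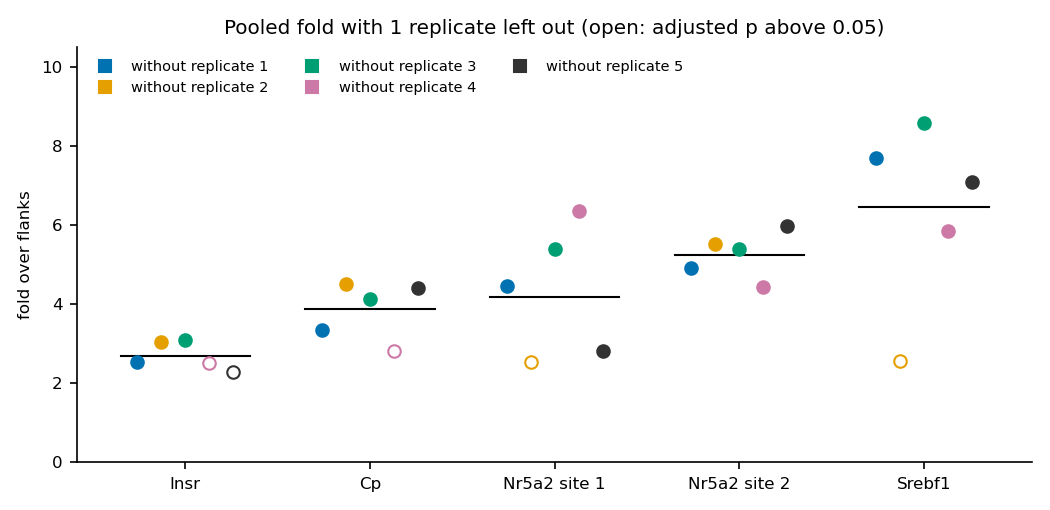
Fold of the pooled count over flanks (vertical axis) for each member interval with 1 replicate left out, coloured by that replicate, and with all 5 replicates (black line). Open points have an adjusted p above 0.05; at Nr5a2 site 2 all 5 points, from 4.43 to 5.98, stay filled.

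The order of the pooled fold was Srebf1, Nr5a2 site 2, Nr5a2 site 1, Cp and Insr, and no neighbours in this order differed beyond counting error. The order itself was not stable. With all deposited reads it was Srebf1 (5.85-fold), Nr5a2 site 1 (5.31), Insr (5.00), Nr5a2 site 2 (3.82) and Cp (2.21). That setting counts copies. In replicate 5, 2 distinct reads at Insr counted as 17 and 4 at Nr5a2 site 1 as 16, while Nr5a2 site 2 held 0. In the Cp flanks of that replicate, 23 distinct reads counted as 131. Without replicate 2, Srebf1 (2.55) came below Insr (3.04) and Cp (4.50), without replicate 4 Nr5a2 site 1 (6.35) came above Srebf1 (5.86), and with flanks of 100 kb Cp (5.08) came above Nr5a2 site 1 (4.02). None of the 10 pairs passed (two-sided Fisher's exact test of the counts in intervals and flanks, Benjamini-Hochberg over the 10 pairs), with a smallest adjusted p of 0.704 and 0 pairs at an unadjusted p under 0.05. That test compares counts and takes no account of the widths. An exact conditional test that the folds are equal given the widths, added after seeing the data, passed none of the 10 pairs either (smallest adjusted p = 0.734, two-sided, 0 pairs at an unadjusted p under 0.05), with an unadjusted p of 0.0836 for Insr and Srebf1. The widest gap was between Insr and Srebf1, a ratio of folds of 0.415 with a 95% interval of 0.160 to 1.08. The intervals of these ratios use a normal approximation on the log scale, which is rough at so few reads. For neighbours, the ratio was 0.812 (0.340 to 1.94) for Nr5a2 site 2 over Srebf1, 0.797 (0.327 to 1.94) for Nr5a2 site 1 over site 2, and 0.923 (0.349 to 2.45) for Cp over Nr5a2 site 1. Cp over Insr gave 1.44 (0.521 to 3.98). The intervals of neighbours span differences of over 1.5 times in both directions, so the test does not show that neighbouring sites were bound alike.

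The spread over the replicates was described with an exact Freeman-Halton test, added after the values were seen, which compared reads in the interval and its flanks over the 5 replicates for each of the 33 intervals. It sets separate libraries, with their different shares of copies, against counting error alone, so its p-values describe the spread and do not test a difference between mice. At an adjusted p of 0.05 this exact test called 9.09% of the intervals (3 of 33), of which Nr5a2 site 1 was 1 (adjusted p = 0.0107). At Srebf1 the unadjusted p of 0.0331 came to 0.0992 after adjustment in this exact test. The values for Cp, Insr and Nr5a2 site 2 were 0.736, 0.736 and 0.753 after adjustment.

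Among the whole list, the members lay toward the lower end. Their median was 10 reads (8 to 12) and 4.19-fold (2.69 to 6.47), against 14 reads (7 to 28) and 6.76-fold (3.75 to 14.0) for the other 28 intervals. Counted from the highest fold, Srebf1 ranked 19 of 33, Nr5a2 site 2 ranked 23, Nr5a2 site 1 ranked 30, Cp ranked 31 and Insr ranked 33. At least 4 replicates held a read at 3 of the 5 members and at 25 of the other 28. The interval nearest in fold was that of Pparg site 1 to Srebf1 (6.50-fold) and Pax4 to Nr5a2 site 1 (4.21-fold), and Zfand6 (3.75-fold) was nearest to both Cp and Insr.

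Summed over the 5 intervals, replicates 1 to 5 held 7, 17, 4, 14 and 7 distinct reads. The summed fold over flanks was 4.38 in replicate 1, 6.63 in replicate 2, 1.62 in replicate 3, 4.35 in replicate 4 and 4.52 in replicate 5, a mean of 4.30 ± 1.78 (SD, n = 5). The same fold over the other 28 intervals was 6.41, 6.22, 2.24, 10.1 and 13.5, a mean of 7.69 ± 4.27. Replicate 3 was the lowest in both sets. Replicate 2 gave 34.7% of the members' reads and 23.6% of all distinct reads, and it was the 1 replicate in which the members stood higher than the other intervals. Replicate 5 gave 14.3% of the members' reads and 8.17% of all distinct reads.

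**Figure D3:**
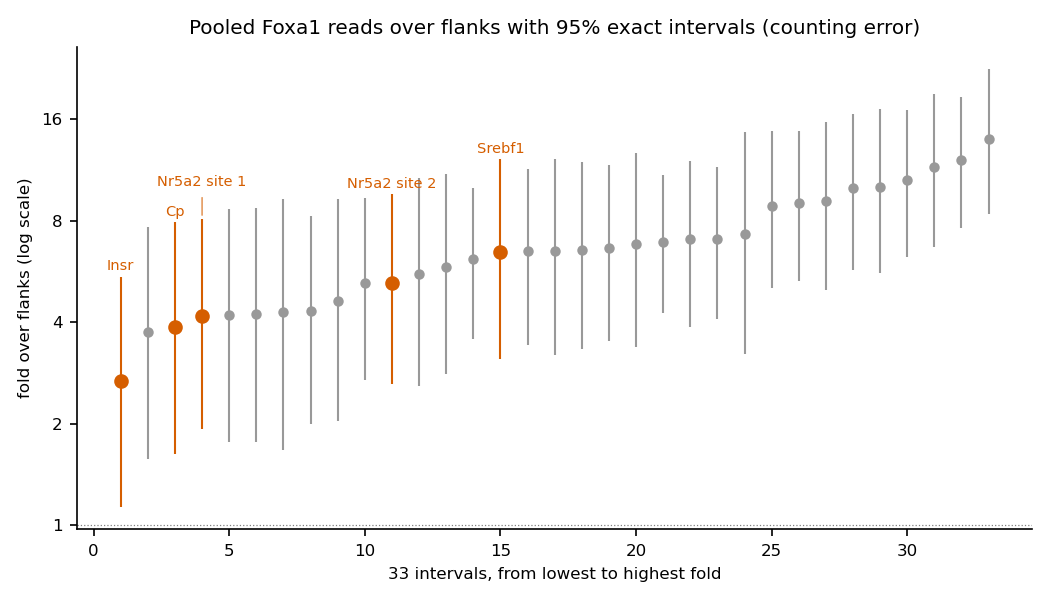
Pooled fold over flanks (log axis) of the 33 intervals in ascending order, members in orange, with exact 95% intervals for counting error. Insr is the lowest at 2.69-fold and Srebf1, the highest member, ranks 19 from the top at 6.47-fold.

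Reads of a bound fragment start to the left of the site on the plus strand and to the right of it on the minus strand. Within 300 bp of the centre, the median minus-strand end lay to the right of the median plus-strand end at all 5 member intervals. The distance between the medians was 114 bp at Srebf1 (7 plus and 7 minus ends), 113 bp at Insr (7 and 3), 101 bp at Cp (5 and 3), 74 bp at Nr5a2 site 1 (5 and 6) and 38.5 bp at Nr5a2 site 2 (8 and 8). The window reaches past the intervals. At Nr5a2 site 2 it took in minus-strand ends at -299, -292 and -272 bp and a plus-strand end at 257 bp, all outside the interval. Ends outside the interval were also counted at Insr, Nr5a2 site 1 and Srebf1. Insr was the least balanced, with 6 plus-strand and 2 minus-strand reads inside the interval after the shift of 50 bp. These are descriptions of a few ends per site, without a test. The study placed the intervals with reads of these same libraries, so the order of the strands is no independent evidence of binding.

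**Figure D4:**
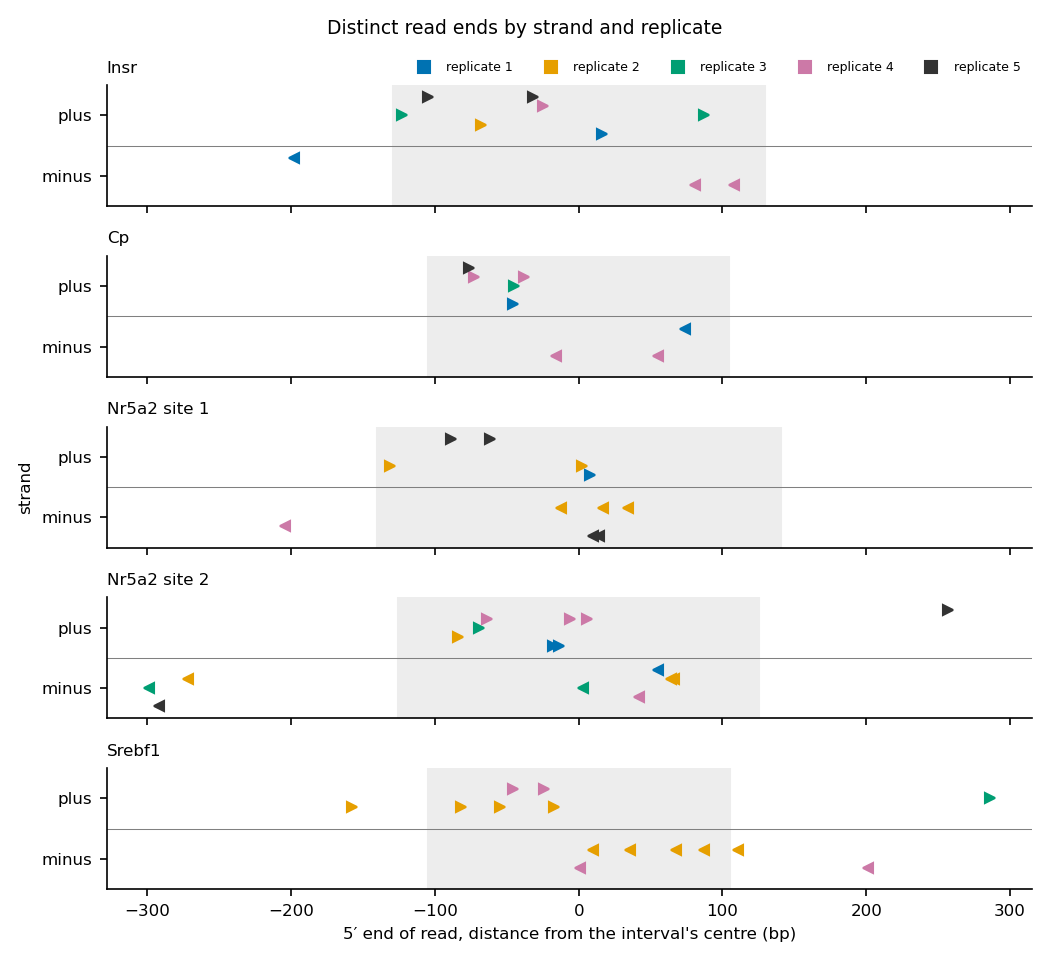
Position of each distinct 5′ end relative to the interval's centre (horizontal axis, bp) on the plus (right-pointing) and minus (left-pointing) strand, coloured by replicate, with the interval in grey. At Srebf1 the ends in the interval come from replicates 2 and 4, plus-strand ends on the left and minus-strand ends on the right of the centre.

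The 4 surroundings, 100 kb on each side of the intervals, were read out from a test of all 200 bp bins of the genome. Each bin was set against the larger of the genome mean, 1.37 reads, and that of the 5 kb to its left and right (one-sided exact Poisson test, Benjamini-Hochberg over 8583579 bins with a read). At a 5% false discovery rate 0.0802% of these bins were called (6882). Bins without a read were left out of the adjustment. Adjusted p-values are therefore smaller than they would be over all 13153545 bins, and calls near the threshold are borderline. In the surroundings, with the listed intervals included, 3 of 3104 bins with a read were called, 0.0966%. Only 1 of these 3 called bins lay outside the listed intervals, and the others lay in Srebf1 and Nr5a2 site 2. Those intervals had been picked with reads of these same libraries, so the share does not describe the surroundings alone. A called bin held at least 9 reads, so a site with fewer reads in 1 bin was not detectable at this depth.

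Both Srebf1 and Nr5a2 site 2 held a called bin. The Srebf1 bin had 11 reads, 6.75-fold over its local background (adjusted p = 0.00338 over all bins, exact Poisson test), and no other of 998 bins around it was as dense as the interval. Its call was lost without replicate 2 (adjusted p = 0.80, exact Poisson test), without replicate 4 (0.0947) and with the grid moved by 100 bp (0.327). The bin in Nr5a2 site 2 had 12 reads, 7.36-fold (adjusted p = 0.000572, same exact test), and 1 of 996 other bins was as dense as that interval. Its call was lost without replicate 4 (adjusted p = 0.0781, exact Poisson test) and with a shift of 100 bp (0.250). The densest bin of Nr5a2 site 1 had 8 reads (adjusted p = 0.180, same exact test), and 6 of 995 other bins matched the interval's density.

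Neither the Insr nor the Cp interval held a called bin. The densest bin of the Insr interval had 6 reads (adjusted p = 0.704, exact Poisson test), and 7 of 998 other bins were at least as dense as the interval. In the Cp interval it had 4 reads (adjusted p = 0.882, same exact test), and 3 of 998 other bins were at least as dense. No bin within 100 kb of Cp was called, and the smallest adjusted p there, 0.0910, was at a bin of 8 reads 55.1 kb to the left.

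One called bin lay outside the listed intervals, 40.7 kb to the left of Insr at chr8:3215801-3216000. It held 2 reads in replicate 1, 3 in replicate 2, 0 in replicate 3, 3 in replicate 4 and 2 in replicate 5. The 10 reads were 5.97-fold over the local background (adjusted p = 0.0200, exact Poisson test over all bins), more than in any bin of the Insr interval. This call was lost in 8 of 15 alternatives, among them those without replicate 1, 2, 4 or 5, where the adjusted p was between 0.0658 and 0.241.

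**Figure D5:**
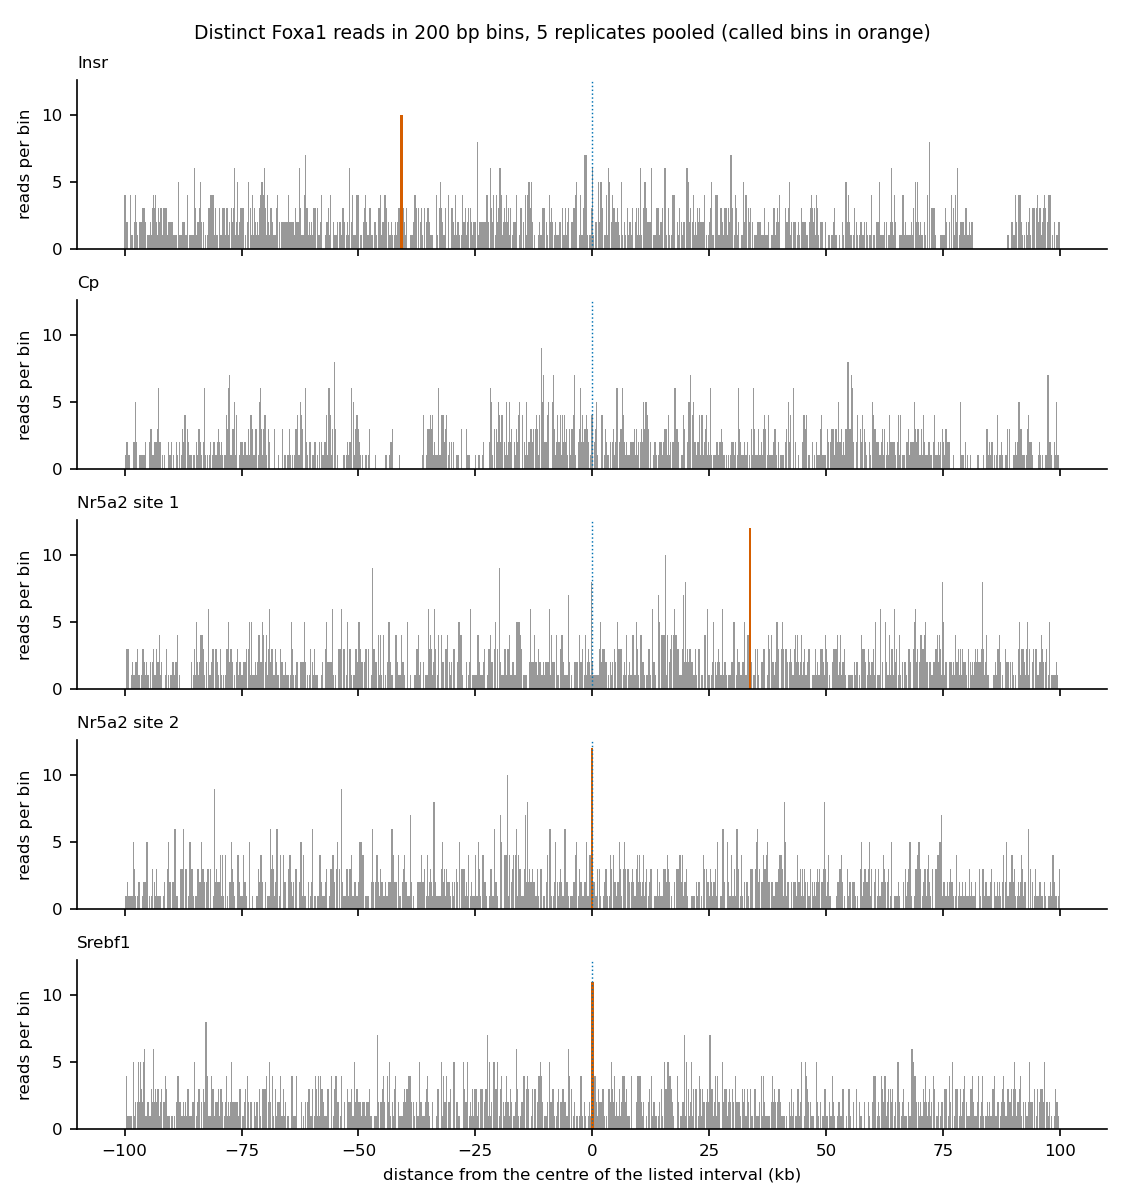
Distinct reads per 200 bp bin, 5 replicates pooled, against the distance in kb from the centre of each listed interval (dotted line), with called bins in orange. Called bins sit at Srebf1 and Nr5a2 site 2 and 40.7 kb to the left of Insr, with none around Cp, and the called bin in the panel of Nr5a2 site 1 is site 2.

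The surroundings as a whole held somewhat more reads per bin than the genome mean. That mean is taken over every bin up to the last read of each chromosome, the X and Y of male mice included. Only 65.3% of those bins held a read, so a ratio above 1 does not by itself show read-rich surroundings. The mean was 1.70 reads per bin around Insr, 1.70 around Srebf1, 1.74 around Nr5a2 and 1.52 around Cp, or 1.24, 1.24, 1.27 and 1.11 times the genome mean. Over replicates the ratio ran from 1.06 to 1.49 at Insr, 0.960 to 1.44 at Srebf1, 1.05 to 1.87 at Nr5a2 and 0.908 to 1.31 at Cp. Around Cp, 31.9% of bins held no read, against 22.8% to 24.1% around the other genes. Around Insr, all bins centred 81493 to 88693 bp to the right of the interval's centre held no read. This stretch counts in the mean around Insr and in its flanks of 100 kb. The Insr interval lies 246 kb from the first read of any replicate on chromosome 8, within the first megabase that reads cover on that chromosome.

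Reference sequence of mm8 was not used here, so the bases under the intervals and their distance from gene starts were not analysed here. In the order of genes of the RefSeq annotation of GRCm38.p6, whose coordinates differ from mm8, Srebf1 stands between Rai1 and Tom1l2, Nr5a2 between Zfp281 and Ptprc, and Cp between Crh and Hps3. The 7 RefSeq promoters of Srebf1, Nr5a2 and Cp (250 bases before the start, GRCm38.p6) held none of the forkhead words TATTGAC (variable bases A and G), TATTTAC (variable bases A and T), TGTTGAC (variable bases G and G) and TGTTTAC (variable bases G and T) on either strand, and 8.77% of 32851 promoters held at least 1. The Insr promoter was not analysed here. No read count was tied to these promoters, and the absence of a word says nothing about binding by Foxa1.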

How the data were processed

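The deposited files list aligned reads of Foxa1 ChIP-Seq by position and strand, with no count, score or signal: per the labels and the study's methods, the authors aligned reads to mm8 with ELAND and kept those with 1 best alignment. The files still hold reads that share a strand and 5′ end, and there is 1 file per replicate. Such copies were counted once in each library, each read was placed 50 bp downstream of its 5′ end, toward the middle of the fragment, and mitochondrial reads were left out. Counts were taken in the listed intervals, their flanks and 200 bp bins of 21 chromosomes, with Python 3.11.15, NumPy 2.4.6, SciPy 1.17.1, pandas 2.3.3 and Matplotlib 3.10.9. The scripts were tested on simulated data. The genes, lists and tests were chosen with earlier results of these data known. Named regions are all member intervals, every called bin within 100 kb and, for each interval, the listed interval nearest in fold, of which 1 is not reported here. The Freeman-Halton test, the test of pairs given the widths, counts within 200 bp of the centre and the fits without both replicates 3 and 5 were chosen after seeing the data. Limits of a count of 0 take 3 reads, and cover counting error only, since PCR copies are not independent molecules. Groups came from the sample labels. The sign-flip p-values ask whether the mean difference between interval and flanks over these 5 libraries is 0, and the SD gives the spread between them.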

Additional observations from a re-analysis of the deposited data

Results flagged for a closer look

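Over 12 groups of 5 replicate values, 2 held a replicate set apart from the others by Dixon's test, which chance does in about 1 group in 20. The flank density of Cp in replicate 5 was 1.56 distinct reads per kb, scaled to 1000000 reads, 0.736 of the group's range away from the nearest replicate. In the member intervals, replicate 5 had 5.29 deposited copies per distinct read, 0.925 of the range away from the next, where the other 4 replicates had 1.12 to 1.43. Over all nuclear reads of the library, 21.1% were distinct in replicate 5, against 57.6% to 93.1% in the other 4. The many copies were thus a trait of the whole library and not particular to these intervals.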

How the results depend on the processing

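The count of 5 member intervals called fell to 3 with intervals widened by 100 bp (Cp 2.00-fold, Insr 1.63-fold, against 2.39, 2.99 and 3.87 at Nr5a2 site 1, Nr5a2 site 2 and Srebf1) and ranged from 3 to 5 with 1 replicate left out. Over the whole list, 31 of 33 were called with widened intervals, so both lost calls were members. It was 3 without replicate 2 (Nr5a2 site 1 and Srebf1 lost, 31 of 33 in the list called), 3 without replicate 4 (Cp and Insr lost, 30 of 33) and 4 without replicate 5 (Insr lost, 31 of 33). With 1 replicate left out the fold ranged from 2.81 to 4.50 at Cp, 2.29 to 3.11 at Insr, 2.54 to 6.35 at Nr5a2 site 1, 4.43 to 5.98 at Nr5a2 site 2 and 2.55 to 8.59 at Srebf1. The 3 called bins in the surroundings became 238 with all deposited reads, when 6.82% of the genome's bins with a read were called. They became 1 with a shift of 100 bp (0.0543%), and 16 against the genome mean only (0.278%). They ranged from 0 without replicate 4 (0.0521%) to 5 without replicate 3 (0.0996%). Windows every 50 bp gave 6 merged regions, which are not comparable with bins. The cause was not tested. No pair of member intervals passed under any of 9 alternatives. Every member interval stayed above its flanks in pooled fold and in mean difference under all alternatives, but the order of the folds among members changed, as given in the Results. The mean difference from the flanks, with 1 replicate left out, ranged from 1.17 to 2.10 at Cp, 0.781 to 1.79 at Insr, 0.877 to 3.29 at Nr5a2 site 1, 1.46 to 2.45 at Nr5a2 site 2 and 0.333 to 2.54 at Srebf1. No pairing between groups was possible because all 5 replicates belong to 1 group. The sign-flip test paired each interval with its flanks within each replicate. With all 5 replicates, a called bin held at least 9 reads.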

Other observations

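With 200 bp windows every 50 bp, 0.0797% of those with a read were called genome-wide, and 6 regions were called within 100 kb of the member intervals. Windows without a read were left out of the adjustment here too, so calls near the threshold are borderline. Nr5a2 site 1 and 2 regions outside the listed intervals are described here. Nr5a2 site 1 was among the called regions, with 10 reads and 6.16-fold over the local background (adjusted p = 0.0158, exact Poisson test), although no fixed bin at that site was called. A merged region 41.3 kb to the right of Nr5a2 site 2 spanned chr1:138787451-138787750. Its 200 bp window of smallest p had 12 reads (5.93-fold, adjusted p = 0.00411, exact Poisson test), with 0, 5, 2, 3 and 2 in replicates 1 to 5. A region 4.89 kb to the left of Srebf1, chr11:60051901-60052100, had 9 reads (5.79-fold, adjusted p = 0.0462, exact Poisson test), with 1, 3, 2, 1 and 2 in replicates 1 to 5, so that, unlike the listed Srebf1 interval, it held a read in every replicate. This region lies in the left flank of the Srebf1 interval, so its reads are among the flank reads there. No fixed bin at that region was called.

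The stretch between both Nr5a2 sites held 2.01 reads per 200 bp, against 1.69 to its left and 1.67 to its right within the surroundings. Per replicate, the density between the sites over that outside was 1.40, 1.14, 0.953, 1.35 and 1.14 in replicates 1 to 5, a mean of 1.20 ± 0.18 (SD, n = 5), above 1 in 4 of 5 replicates. This ratio was noticed in the data and not tested.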
